A study of Mus musculus with 12 samples.

Results

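Fc receptors are the surface and endosomal proteins through which cells sense antibodies, and 8 genes of this family were on the nCounter mouse immune panel: every immune gene of the raw table whose symbol begins with Fcgr, Fcer or Fcamr, among 545 in all. The 8 are Fcgr1, Fcgr2b, Fcgr3, Fcgr4, Fcer1a, Fcer1g, Fcgrt and Fcamr. Their RNA was measured in microglia, the resident macrophages of the brain, sorted from the hippocampus of male mice of the Balbc strain (BALB/c) on day 14 after birth (P14, 6 mice) or day 28 (P28, 6 mice). The cells were isolated on a Percoll gradient and by flow cytometry; the labels do not describe the sort gate. The labels name no genetic change or agent, and all 12 mice had control rearing and came from separate litters. The question is how these genes differ between the ages in a study of early life stress and microglial maturation; stressed mice were not analysed here.

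Antibody-binding chains such as Fcgr1, Fcgr3 and Fcgr4 catch immune complexes but do not signal well alone. In mouse myeloid cells they sit in the membrane with Fcer1g, the FcR gamma chain, whose cytoplasmic activation motif (ITAM) recruits the kinase Syk and starts phagocytosis and oxidative burst. Fcgr2b binds the same complexes and carries an inhibitory motif (ITIM) of its own, so that the balance of activating and inhibitory receptors sets how strongly a cell reacts to antibody. Fcgrt, the neonatal Fc receptor, is built like an MHC class I heavy chain, pairs with B2m and rescues IgG from breakdown in endosomes. Fcer1a binds IgE on mast cells and basophils, and Fcamr binds IgM and IgA.

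The shared signalling chain and the recycling receptor were lower at P28, and the antibody-binding chains were not called as changed. Fcer1g was 2.10-fold lower at P28 and Fcgrt 2.06-fold lower, while Fcgr1, Fcgr2b, Fcgr3 and Fcgr4 did not pass the test. Fcer1a and Fcamr were not above background in any sample. Of the 6 genes above background, 0 were called higher and 2 lower, against 16.7% and 13.9% of all 366 tested genes (30.6% in either direction), and their median log2 fold change was -0.22 against 0.0026 for all tested genes. RNA came from sorted cells in bulk, so less RNA per cell and fewer cells carrying it cannot be told apart.

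Counts are barcodes per probe. Levels are given as counts scaled to the geometric mean of 6 reference genes, as mean ± SD of 6 samples. Changes are log2 fold changes of P28 over P14 with their SE, from a quasi-likelihood fit in edgeR. A gene was called at a Benjamini-Hochberg adjusted p of 0.05 over the 366 genes above background. Probe efficiency differs between genes, so levels are compared between ages and not between genes. Total raw counts over the 545 genes ran from 356398 to 1534660 per sample. P14 samples 4 and 5 had the smallest totals, 772723 and 356398, and stand apart from the other P14 samples in several results here. The values without them are given beside many of the results they move, but not beside all. The positive-control probes, spiked in at fixed amounts, had geometric means of 542 to 651 counts at P14 and 1069 to 1235 at P28, without overlap. The age and this difference between lanes cannot be told apart, and it bears on every scaled value; ratios of 2 genes in the same sample use no scaling. Microglial identity genes were high in every sample: the 8 markers on the panel (Cx3cr1, Csf1r, Trem2, Tgfbr1, Itgam, Ptprc, Emr1 and Tyrobp) summed to 198696 to 232826 scaled counts at P14 and 208016 to 244770 at P28. Of them Trem2 rose (0.71 ± 0.13, but -0.07 with positive controls alone), Emr1 fell and the other 6 did not pass. Csf1r and Itgam were less even than the sum. Csf1r ran from 45475 to 101551 scaled counts at P14 and from 94270 to 105423 at P28. Itgam ran from 59088 to 104602 at P14 and from 45185 to 82378 at P28. Without P14 samples 4 and 5 the log2 fold change moved from 0.29 to 0.06 for Csf1r and from -0.37 to -0.14 for Itgam. Neither was called in either setting. Further microglial markers were not analysed here.

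The upstream sequences of the 2 genes that fell and of the 2 most contrasting receptor chains, the activating Fcgr1 and the inhibitory Fcgr2b, are shown to place the comparison at the level of the genes. Each is the stretch of 250 bases before the RefSeq start in GRCm38.p6, minus strand: Fcer1g at chr1:171234350-171234599, Fcgrt at chr7:45103823-45104072, Fcgr1 at chr3:96293970-96294219 and Fcgr2b at chr1:170976072-170976321. The deposited files name no genome build, and the probes lie in the transcripts, not in these windows. Capitals mark the motif GAGGAA or its reverse complement TTCCTC, a core bound by the myeloid factor PU.1.
Fcer1g: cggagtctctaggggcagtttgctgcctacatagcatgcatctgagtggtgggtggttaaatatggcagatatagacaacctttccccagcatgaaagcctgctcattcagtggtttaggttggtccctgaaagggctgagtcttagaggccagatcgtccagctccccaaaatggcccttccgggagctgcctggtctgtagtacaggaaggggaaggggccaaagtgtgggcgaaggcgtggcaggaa
Fcgrt: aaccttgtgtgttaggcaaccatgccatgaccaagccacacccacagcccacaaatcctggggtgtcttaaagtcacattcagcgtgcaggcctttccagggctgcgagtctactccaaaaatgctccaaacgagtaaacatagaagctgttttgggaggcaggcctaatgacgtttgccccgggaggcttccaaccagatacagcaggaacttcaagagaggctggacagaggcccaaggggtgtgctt
Fcgr1: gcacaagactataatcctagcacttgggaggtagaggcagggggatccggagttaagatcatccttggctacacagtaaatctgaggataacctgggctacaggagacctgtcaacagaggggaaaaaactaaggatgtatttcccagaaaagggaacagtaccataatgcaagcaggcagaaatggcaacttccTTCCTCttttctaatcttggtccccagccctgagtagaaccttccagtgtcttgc
Fcgr2b: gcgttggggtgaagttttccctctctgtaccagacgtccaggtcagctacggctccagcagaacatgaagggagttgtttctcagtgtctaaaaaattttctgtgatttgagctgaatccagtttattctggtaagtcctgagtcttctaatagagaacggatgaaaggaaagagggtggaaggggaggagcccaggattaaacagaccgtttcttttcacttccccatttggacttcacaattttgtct
Searched on both strands, the motif stood once in the Fcgr1 window, at base -55 from the start, and in none of the other 3 windows printed. Among all 8 genes, 5 had it (Fcgr1, Fcgr3, Fcgr4, Fcer1a and Fcamr), and 23.3% of the 32851 windows of the same length in RefSeq's table held it. Around it, Fcgr1 and Fcgr3 shared the run TTCCTTCCTC, of 10 letters. Pairs of the 8 windows compared shared runs of 7 to 11 letters. RefSeq gives another start for Fcgr3, whose window is chr1:171059395-171059644 with the motif at base -15. That window was not compared. The Fcgr3 window compared ends with the motif, and in the other the run shared with Fcgr1 goes on further. A match is a description of the letters, and its absence says nothing about what binds there. Fcer1g, Fcgr2b, Fcgr3 and Fcgr4 lie on chromosome 1, Fcgrt on chromosome 7 and Fcgr1 on chromosome 3.

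Fcer1g (probe accession NM_010185.4), the signalling chain whose window is printed first, had 3606 scaled counts in the lowest, 4351 in the median and 4949 in the highest P14 sample. At P28 the lowest was 1952, the median 2049.7 and the highest 2155. The ages did not overlap, and the P28 samples lay close together, with a coefficient of variation of 3.78% against 11.6% at P14. The fit gave a log2 fold change of -1.07 ± 0.10 (n = 6 per age, edgeR adjusted p = 9.98e-07), lower at P28. On raw counts, with no scaling, the 6 P28 samples held 1804 to 3001 and the P14 samples 2001 to 5499. Only P14 sample 5, with 2001, lay inside the P28 range, and it had the smallest total. Without P14 samples 4 and 5 the change was -0.99 ± 0.08 (edgeR adjusted p = 1.46e-06).

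Fcgrt (NM_010189.3), which recycles IgG and albumin, ran from 4927 through a median of 5759 to 6498 scaled counts at P14 and from 2511 through 2770.4 to 3153 at P28. Again no P28 sample reached the lowest P14 sample. The log2 fold change was -1.04 ± 0.10 (edgeR adjusted p = 1.45e-06), and -1.07 ± 0.09 without P14 samples 4 and 5 (edgeR adjusted p = 1.60e-06). Of all 366 tested genes 20.8% had no overlap between the ages, 7.92% with P28 as the lower age. Among the 51 genes called lower, Fcer1g and Fcgrt ranked 2 and 3 by p-value and 10 and 11 by size of the fitted change.

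**Figure D1:**
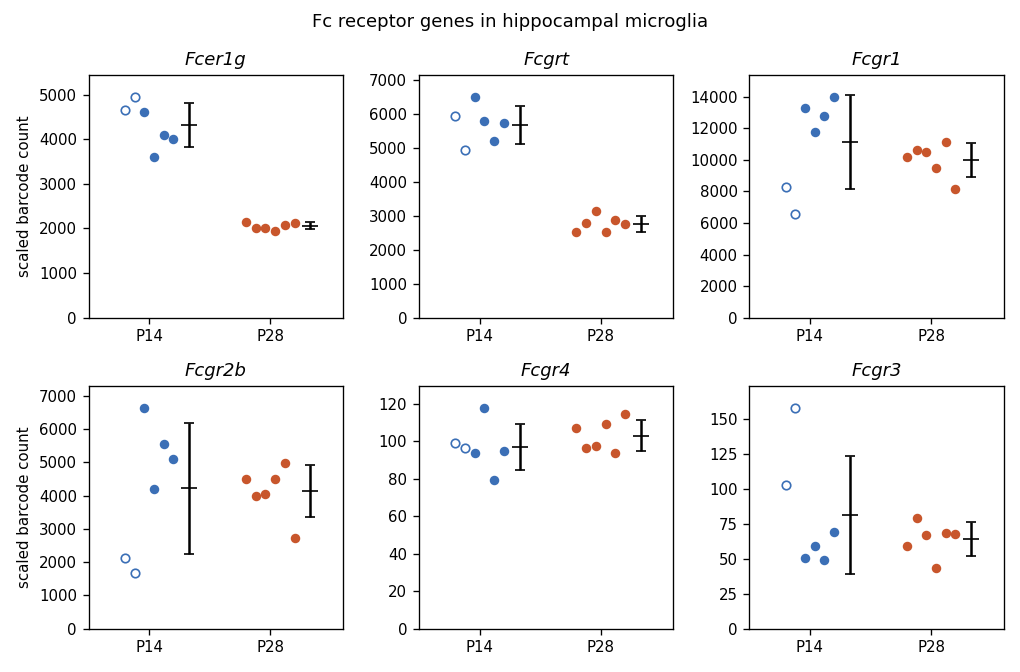
Scaled barcode counts (y axis, from 0, own scale in each panel) of the 6 Fc receptor genes above background at P14 (blue) and P28 (orange). Each point is 1 animal, open points are P14 samples 4 and 5, and bars give mean ± SD (n = 6); Fcer1g and Fcgrt separate the ages, while P14 samples 4 and 5 are the 2 lowest for Fcgr1 and Fcgr2b and the 2 highest for Fcgr3.

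Among the antibody-binding chains, Fcgr1 (NM_010186.5), the high-affinity IgG receptor CD64, had 6591 scaled counts in the lowest, 12279 in the median and 13993 in the highest P14 sample. At P28 these were 8135, 10361 and 11129.8. The P28 samples all lay within the P14 range, and the change did not pass (-0.15 ± 0.17, edgeR adjusted p = 0.559). P14 samples 4 and 5, with 8282 and 6591, were the 2 lowest of their age, and the other 4 had 12964 ± 929. Without those 2 samples Fcgr1 was called lower at P28, by 1.29-fold (-0.37 ± 0.09, edgeR adjusted p = 0.00732), and 3 of the 6 genes were then called lower against 24.6% of all genes tested. The call of Fcgr1 therefore depends on these P14 samples.

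Fcgr2b (NM_001077189.1), the inhibitory receptor, varied most in raw counts among the 6 genes, from 674 in P14 sample 5 to 7936 in P14 sample 16. Scaled, it ran from 1667 through a median of 4645 to 6643 at P14 and from 2725 through 4274 to 4994 at P28. The change did not pass (-0.03 ± 0.29, edgeR adjusted p = 0.954). P14 samples 4 (2127) and 5 (1667) were again the lowest 2, against 5374 ± 1021 in the other 4. Without them the value was -0.38 ± 0.16 and still did not pass (edgeR adjusted p = 0.0699).

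Fcgr4 (NM_144559.1), an activating IgG receptor of myeloid cells, was low but above background in all 12 samples. It ran from 79.0 through 95.7 to 118 scaled counts at P14 and from 93.9 through 102 to 114 at P28. The ages overlapped, and the change did not pass (0.09 ± 0.12, edgeR adjusted p = 0.624). P14 samples 4 and 5 did not stand apart for this gene, with 99.1 and 96.5. In the authors' deposited table Fcgr4 has a fold of 1.16 with a p-value of 0.0471, while limma on the authors' values gave 0.22 with an adjusted p of 0.155 over all genes. That table lists folds of 0.52 for Fcer1g, 0.53 for Fcgrt, 0.99 for Fcgr1, 1.08 for Fcgr2b and 0.85 for Fcgr3.

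Fcgr3 (NM_010188.5), the low-affinity receptor CD16, gave few barcodes for a receptor known from microglia. It was above the lane's background threshold in every sample, with raw counts of 79, 64, 60, 66, 51 and 80 in P14 samples 4, 5, 16, 25, 61 and 81. In P28 samples 118, 134, 135, 119, 137 and 138 they were 82, 71, 70, 55, 85 and 67. These counts were nearly flat across samples: they spanned 1.67-fold, while the geometric mean of the 6 reference genes spanned 3.44-fold and Fcgr4 3.82-fold. The raw coefficient of variation of Fcgr3 was 15.7%, the smallest among the 366 tested genes, whose median was 36.1%. The scaled value was therefore highest where the reference genes were lowest, at 158 in P14 sample 5 and 103 in P14 sample 4 against 49.1 to 69.0 in the other P14 samples and 43.4 to 79.5 at P28. The change did not pass (-0.30 ± 0.27, edgeR adjusted p = 0.458) and had the other sign without P14 samples 4 and 5 (0.17 ± 0.17, edgeR adjusted p = 0.459). Fcgr2b and Fcgr3 are close paralogs, probe sequences were not analysed here, and whether either probe takes up the other's RNA was not tested.

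Fcer1a (NM_010184.1), the IgE-binding chain, and Fcamr (NM_001170632.1), the receptor for IgM, were above the lane threshold (mean plus 2 SD of the 8 negative probes, 12.9 to 33.4 counts) in 0 of 12 samples and were not tested. Fcer1a had raw counts of 4 to 17 at P14 and 10 to 23 at P28. Fcamr had 1 to 8 at P14 and 15 to 21 at P28. The mean of the negative probes ran from 7.13 to 14.8 at P14 and from 10.5 to 17.4 at P28, so both genes lay near the level of probes without a target. With no filter on low counts Fcamr was called higher at P28 (1.84, edgeR adjusted p = 0.000151, where 12.3% of the 545 genes were), although it was under background in every sample.

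**Figure D2:**
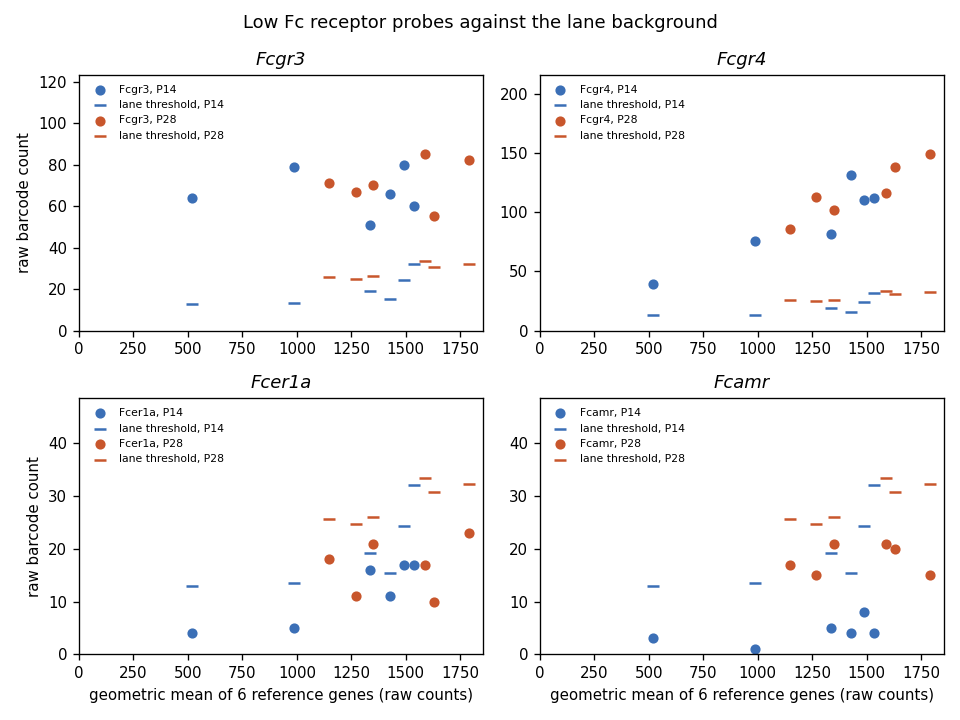
Raw barcode counts (y axis) of the 4 genes with the fewest counts against the geometric mean of the 6 reference genes in raw counts (x axis), 1 point per animal, P14 blue and P28 orange; dashes mark each lane's background threshold. Fcgr4 climbs with the reference genes, Fcgr3 stays between 51 and 85 counts, and Fcer1a and Fcamr lie under the threshold in all 12 samples.

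Ratios of 2 genes counted in the same sample do not depend on any scaling, and 10 of them were tested by permuting the ages exactly (two-sided, 924 arrangements), which allows no p under 0.00216. Benjamini-Hochberg adjustment ran over the 10 ratios. Of these, 6 changed between the ages: the 5 that hold Fcer1g against a gene other than Fcgrt, and Fcgrt over B2m. The ratios among the binding chains, and Fcgrt over Fcer1g, were not called.

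The signalling chain was lower at P28 relative to the activating chains Fcgr1 and Fcgr4. The raw ratio of Fcer1g to Fcgr1 was 0.286 in the lowest, 0.334 in the median and 0.751 in the highest P14 sample, and 0.187, 0.198 and 0.262 at P28, without overlap. The mean log2 ratio changed by -0.95 (95% interval -1.48 to -0.47, exact permutation adjusted p = 0.00541). P14 samples 4 and 5, with 0.562 and 0.751, were the highest, and without them the change was -0.60 (exact permutation adjusted p = 0.00952). Fcer1g over Fcgr4 changed by -1.15 (interval -1.39 to -0.87, exact permutation adjusted p = 0.00541), again without overlap, from 30.4 to 51.3 at P14 and 17.8 to 21.97 at P28. Fcer1g over Fcgr3 changed by -0.83 (interval -1.40 to -0.24, exact permutation adjusted p = 0.0180), with overlapping ages. Without P14 samples 4 and 5 the change was -1.14 (exact permutation adjusted p = 0.00952). The call was lost when the mean of the negative probes was subtracted (-0.78, exact permutation adjusted p = 0.0541). Since raw Fcgr3 was nearly flat across samples, this ratio moves mainly with the raw Fcer1g count and need not be free of the amount of material. Fcer1g was also lower relative to Tyrobp, the sister ITAM chain that serves Trem2, by -1.16 (interval -1.77 to -0.64, exact permutation adjusted p = 0.00541; -0.77 without P14 samples 4 and 5).

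Against the inhibitory receptor, Fcer1g over Fcgr2b fell from a median of 0.822 at P14 to 0.488 at P28. The change was -1.17 (interval -2.06 to -0.36, exact permutation adjusted p = 0.013) and -0.60 without P14 samples 4 and 5 (exact permutation adjusted p = 0.0476). In those samples the ratio was 2.19 and 2.97, against 0.693 to 0.861 in the other P14 samples, and P28 sample 138, at 0.782, overlapped them. By contrast, the activating binding chains and Fcgr2b were not called as changed relative to each other. Fcgr1 over Fcgr2b changed by -0.22 (interval -0.61 to 0.17, exact permutation adjusted p = 0.356). Fcgr4 over Fcgr2b changed by -0.02 (interval -0.95 to 0.79), and Fcgr3 over Fcgr2b by -0.34 (interval -1.74 to 0.94). P14 samples 4 and 5 stood apart in all 3 ratios. Fcgr3 over Fcgr2b was 0.0490 and 0.0963 in them and 0.00769 to 0.0144 in the other P14 samples, and Fcgr4 over Fcgr2b was 0.0472 and 0.0593 against 0.0142 to 0.0284. Without them the changes were 0.0086 for Fcgr1, 0.49 for Fcgr4 and 0.55 for Fcgr3 over Fcgr2b, each with the other sign and none called (exact permutation adjusted p = 0.948, 0.125 and 0.125). With all samples, as folds, the interval of Fcgr1 over Fcgr2b ran from 0.657 to 1.13, that of Fcgr4 over Fcgr2b from 0.519 to 1.73 and that of Fcgr3 over Fcgr2b from 0.30 to 1.92. These data therefore do not show that the balance of activating to inhibitory chains stayed level.

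Fcgrt and Fcer1g were not called as different in their fall. Their ratio ran from 0.996 through a median of 1.34 to 1.61 at P14 and from 1.17 through 1.34 to 1.57 at P28, a change of 0.02 (interval -0.22 to 0.27, exact permutation adjusted p = 0.943). This interval limits any difference between the 2 falls to 1.20-fold. Within an age the 2 genes did not move together: the correlation of their log2 scaled counts was -0.12 over the 6 P14 samples and -0.15 over the 6 P28 samples, given as a description. B2m, the light chain that Fcgrt needs, fell less than Fcgrt: from 10594 ± 706 to 8854 ± 493 scaled counts (-0.26 ± 0.08, edgeR adjusted p = 0.0263). The call of B2m was lost with the authors' factors (-0.14, edgeR adjusted p = 0.218), with limma on the authors' values (adjusted p = 0.262), with all 14 reference genes (0.0535) and with no filter on low counts (0.0538). It was also lost when P14 sample 4, 16 or 61 or P28 sample 134, 135 or 119 was left out (edgeR adjusted p = 0.0549 to 0.0627). The ratio of Fcgrt to B2m ran from 0.479 to 0.574 at P14 and from 0.267 to 0.365 at P28, a change of -0.78 (interval -0.94 to -0.62, exact permutation adjusted p = 0.00541).

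**Figure D3:**
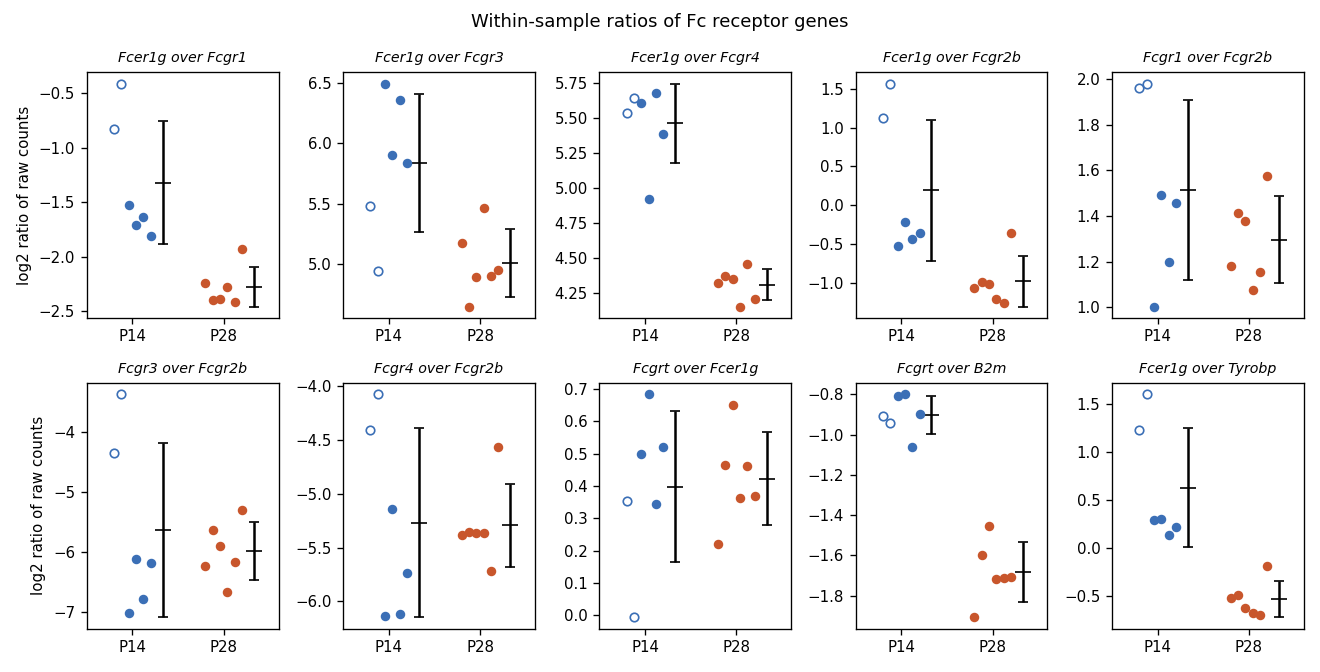
Log2 ratios of raw counts within each sample (y axis, own scale in each panel) for the 10 gene pairs at P14 (blue) and P28 (orange), 1 point per animal, with mean ± SD (n = 6) and P14 samples 4 and 5 as open points. Fcer1g over Fcgr1, over Fcgr4 and over Tyrobp and Fcgrt over B2m separate the ages, and the other 6 ratios overlap.

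The falls of Fcer1g and Fcgrt kept their direction and their call under every scaling run. Fcer1g ranged from -0.95 with the authors' factors to -1.75 with positive controls alone, and Fcgrt from -0.91 to -1.78. Positive controls alone moved the median of all genes to -0.74 and called 34.7% of them lower and 2.19% higher; on that scale Fcgr1 (-0.97, edgeR adjusted p = 0.044) and Fcgr3 (-0.85, edgeR adjusted p = 0.0308) were called lower as well, and Fcgr2b (-0.89) and Fcgr4 (-0.61) were not. The signs of Fcgr2b and Fcgr4 depended on the scaling: Fcgr2b was at 0.11 with the authors' factors and -0.16 without Polr1b, and Fcgr4 at 0.21 and -0.03. Over all tested genes the split also moved: 25.4% were higher and 9.84% lower with the authors' factors, 24.3% and 11.5% with all 14 reference genes, 13.7% and 20.2% without Polr1b, and 13.9% and 26.2% with total counts.

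**Figure D4:**
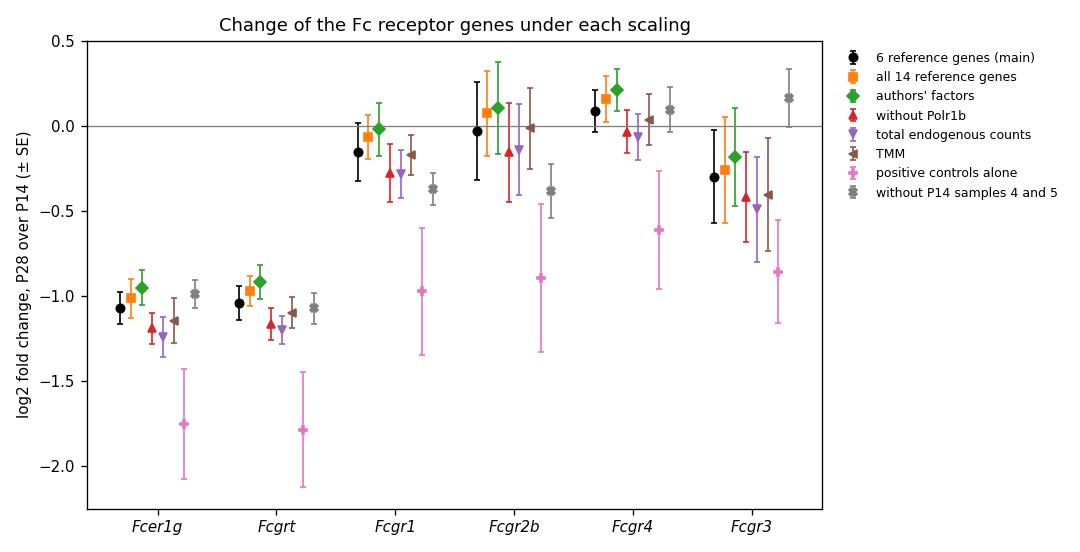
Log2 fold change of P28 over P14 (y axis, ± SE from edgeR) of the 6 tested Fc receptor genes under 7 scalings and, on the main scaling, without P14 samples 4 and 5. Fcer1g and Fcgrt lie between -0.91 and -1.78 throughout, while Fcgr2b and Fcgr4 lie on either side of 0 depending on the scaling.

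Genes linked to Fc receptors, not all of them downstream, were examined with a list of 65 genes, of which 29 were on the panel and 23 above background. The list also holds the B cell receptor chains Cd79a and Cd79b, Lck, which is also among the T cell markers, and B2m, the partner of Fcgrt. The counts are therefore not those of a downstream pathway alone. Of these 23, 3 rose, 5 fell and 15 did not pass, with a median of -0.015 against 0.0026 for all tested genes, beside the 16.7% and 13.9% called over all genes. Of 5 kinases, Syk, the kinase that docks on the phosphorylated ITAM, did not pass (-0.03 ± 0.11), nor did Btk (-0.08 ± 0.09) or Src (0.34 ± 0.15). The Src-family kinases Fyn, from 859 ± 283 to 309 ± 42.2 scaled counts (-1.48 ± 0.20, edgeR adjusted p = 6.62e-05), and Lck, from 98.9 ± 15.4 to 49.5 ± 8.05, fell. Of the other ITAM chains, Tyrobp did not pass, with 2911 ± 909 scaled counts at P14 and 2991 ± 329 at P28 (0.04 ± 0.19). P14 samples 4 and 5 had 1989 and 1629.9, against 2933 to 3747 in the other 4, and without them the value was -0.21 (edgeR adjusted p = 0.129). The B cell receptor chain Cd79b fell (-1.20 ± 0.18), and its partner Cd79a rose (0.76 ± 0.18, but -0.0095 with positive controls alone). Cd79a was low, above background in 4 of 6 P14 and 6 of 6 P28 samples.

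Of 9 adaptors and effectors, Card9, an adaptor downstream of Syk, fell from 8667 ± 825 to 6508 ± 946 scaled counts (-0.41 ± 0.11, edgeR adjusted p = 0.0112), a call lost with the authors' factors (-0.29, edgeR adjusted p = 0.0734) and with limma on the authors' values (adjusted p = 0.0782). Cybb, the NADPH oxidase subunit of the oxidative burst, rose from under background in every P14 sample, at least 2.61-fold on the main scaling. Its fitted change was 2.05, and 1.29 with positive controls alone. The other oxidase subunit listed, Ncf4, did not pass (0.46 ± 0.21), nor did Lcp2, Blnk, Prkcd, Nfatc1, Nfatc2 or Nfatc3. Without P14 samples 4 and 5 Ncf4 was at 0.20, and the signs of Lcp2 (0.12 to -0.10), Nfatc1 (0.28 to -0.11) and Nfatc3 (0.03 to -0.24) turned, none of them called. Among 5 inhibitory genes, Ptpn6, the phosphatase SHP-1 that ITIM receptors recruit, rose from 5703 ± 318 to 7803 ± 949 (0.45 ± 0.10, edgeR adjusted p = 0.00276, but -0.26 with positive controls alone). Lilrb3, Lilrb4, Ptpn22 and Pecam1 did not pass. Without P14 samples 4 and 5, Lilrb4 moved from -0.13 to -0.41 and Pecam1 from -0.43 to -0.12, neither of them called. Clec4e, a receptor for fungal and mycobacterial glycolipids that signals through Fcer1g, was under background in every sample.

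**Figure D5:**
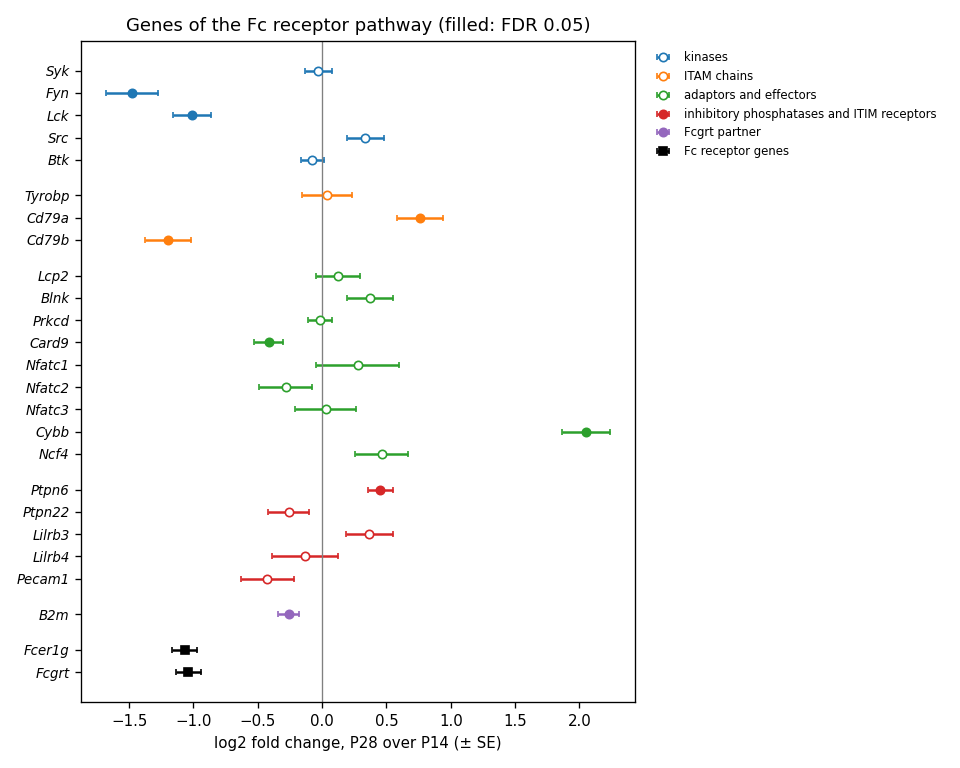
Log2 fold change of P28 over P14 (x axis, ± SE from edgeR) of the 23 tested pathway genes by role, with Fcer1g and Fcgrt for comparison; filled round points passed an adjusted p of 0.05. Fyn, Lck, Cd79b, Card9 and B2m lie to the left and Cybb, Cd79a and Ptpn6 to the right; the Cybb value is a fitted one, since P14 samples were under background.

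Cells other than microglia also carry these receptors, so their markers were read beside the results. For endothelial and mural cells, which use Fcgrt, 3 of 3 panel markers were above background; Cdh5 fell (-0.63 ± 0.15), Pdgfrb rose (0.41 ± 0.14, and -0.35 with positive controls alone), and the list summed to 2073 to 3345 scaled counts at P14 and 1857 to 2941 at P28. For NK cells, which use Fcer1g and Fcgr3, 4 of 6 were above background, with Klrd1 higher and Prf1 not called; Klrk1 and Gzma were above it in 5 of 6 P14 and 0 of 6 P28 samples, at least 1.49-fold and 1.097-fold lower, and the sums were 91.5 to 219 at P14 and 214.5 to 327 at P28. For neutrophils, 3 of 6 were above background, Cxcr2 was above it in all P14 and 0 of 6 P28 samples (at least 1.83-fold lower), S100a8, S100a9 and Camp lay mostly under background, and the sums, mostly Csf3r, were 2875 to 8706 and 4189.5 to 8272. For B cells, whose main Fc receptor is Fcgr2b, Pax5 and Cr2 were under background in all samples, and the 6 panel markers summed to 401 to 629.5 at P14 and 243 to 364 at P28. For mast cells and basophils, Il1rl1 was above background and did not pass, and Kit was above it in 1 of 12 samples (sums 168 to 231 and 171 to 233). Monocyte and border macrophage markers, with 5 of 6 above background, had Itgal under background in every P28 sample (at least 1.56-fold lower), Ccl24 higher (-0.14 with positive controls alone), Cd163 seldom above background and sums of 291 to 492 and 373 to 516. For T cells, Cd5 rose (1.07, and 0.33 with positive controls alone) and Lck fell. Cd5 was above background in 3 of 6 P14 and 6 of 6 P28 samples. Cd3e was under background throughout, and the sums were 171 to 203 and 132 to 184. Without P14 samples 4 and 5, Csf3r was called higher (0.72) and Pdgfrb was not called. The part of these cells in the falls of Fcer1g and Fcgrt was not tested.

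The genes whose pattern over the 12 samples was most like that of Fcer1g were named by the highest Pearson correlation of log2 scaled counts among the other 365 tested genes, a description since they were chosen for it. They were Emr1, the macrophage surface protein F4/80 (r = 0.976), Il2rb, a shared chain of receptors for IL-2 and IL-15 (0.969), Bax, an activator of apoptosis (0.959), and Ebi3, a chain of IL-27 (0.958). All 4 were lower at P28. Emr1 went from 10361 ± 611 to 6275 ± 345 scaled counts, while Il2rb passed the background threshold in all 6 P14 and 0 of 6 P28 samples. Fcgrt came sixth (0.946). Fcgr1 (0.04) and Fcgr2b (-0.21) did not share the pattern.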

How the data were processed

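Sorted hippocampal microglia of 6 P14 and 6 P28 mice were measured on the nCounter mouse immune panel after 5 rounds of PCR on cDNA from 2 ng of RNA, per the labels. PCR copies are not independent molecules. The authors deposited raw barcode counts per probe, unscaled, and a second table, treated as a score: counts that the authors scaled to positive controls and reference genes, per the labels. It also holds, per the file headers, a fold (a ratio of P28 to P14 means) and a p-value headed as a t-test; the kind of test and the counting software are not given in the sources used here.

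Raw counts were tested with edgeR 4.0.16 in R 4.3.3 (glmQLFit, glmQLFTest), with age as the only term and the geometric mean of Alas1, Gapdh, Oaz1, Polr1b, Sdha and Tbp as the library size. The labels state a smaller number of reference genes than the 6 they list, and the 6 listed were used. Scale factors were divided by their geometric mean. Genes were tested when above the mean plus 2 SD of the lane's negative probes in at least 40% of samples, the rule in the labels, and adjusted over all 366 such genes (Benjamini-Hochberg, 0.05). The fit was tested on simulated counts. Where an age had no sample above background, the fold is a bound against that age's mean scaled threshold, on the main scaling only. Ratios are of raw counts plus 1; their 95% intervals hold the shifts that the exact test does not reject at 0.05. All 8 members matched RefSeq (GRCm38.p6) by accession; upstream sequences come from RefSeq.

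The members and lists were chosen with earlier results of these data known. Named genes are all members, the pathway genes past the threshold, the ratio partners and the 5 genes most correlated with Fcer1g over all samples and within ages; other pathway and marker genes named in the text were chosen after their values were seen. Some genes that these rules and lists name are not reported here. Alternatives were other scalings, DESeq2 1.42.0, limma 3.58.1, other presence rules and pseudocounts, and samples left out.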

Additional observations from a re-analysis of the deposited data

Results flagged for a closer look

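In 36 groups of 6 values (each Fc receptor gene and each ratio at each age), 3 held a value far from the rest by Dixon's test, all in P28 sample 138; chance marks about 5% of groups. Its log2 ratio of Fcer1g to Fcgr1 was -1.93, against -2.42 to -2.24 in the other P28 samples. Its log2 ratio of Fcer1g to Fcgr2b was -0.36, against -1.26 to -0.98. Its log2 ratio of Fcgr4 to Fcgr2b was -4.56, against -5.72 to -5.36. The sample had the lowest scaled counts of Fcgr1 (8135) and Fcgr2b (2725) at P28, while its Fcer1g (2130.2) and Fcgr4 (114) lay at or near the top of that age.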

How the results depend on the processing

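With 1 sample left out in turn, each Fc receptor gene and each ratio kept its side of the threshold; pathway genes called higher then numbered 3 to 4 and those called lower 4 to 7. Under other settings 12 counts moved by over 1.5 times, 3 values gained a call and 1 lost it. Fcer1g ranged from -1.75 to -0.94 and Fcgrt from -1.78 to -0.91 over 26 alternatives, with adjusted p up to 0.000324 and 0.000434. Fcgr1 was called with positive controls alone (-0.97) and without P14 samples 4 and 5 (-0.37), and Fcgr3 with positive controls alone (-0.85). The number of Fc receptor genes called lower was then 4 with positive controls alone, and without a filter on low counts 1 gene, Fcamr, was called higher (1.84, edgeR adjusted p = 0.000151) although every sample was under background. Fcer1g over Fcgr3 lost its call with the negative mean subtracted (-0.78). Pathway genes called higher, 3 in the main setting, numbered 1 with positive controls alone and with only genes above background in all 12 samples, 5 with TMM and with DESeq2's own size factors, 6 with all 14 reference genes and with limma on the authors' values, and 7 with the authors' factors. Pathway genes called lower, 5 in the main setting, numbered 8 with positive controls alone and 3 with the authors' factors and with limma on the authors' values. The cause was not tested. Fcgr3, Fcgr4, Fcer1a and Fcamr are limited by counts near background, and P14 samples 4 and 5 lie far from the rest in the ratios to Fcgr2b.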

Other observations

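Within an age, the genes most like Fcer1g were not those most like it over all 12 samples. By the mean of the correlations at P14 and at P28 (6 samples each, a description), the closest were Myd88, the adaptor of Toll-like receptors (0.772), the kinase Src (0.729), Irgm1, an interferon-induced GTPase (0.70), Maf, a macrophage transcription factor (0.689), and Hif1a, the oxygen-regulated transcription factor (0.673). Of these, only Irgm1 was called between the ages (-0.44 ± 0.14, edgeR adjusted p = 0.0206). The scaled counts of Myd88 were 255 ± 54.8 (P14) and 204 ± 24.6 (P28), those of Hif1a 1898 ± 158 and 1968 ± 146. Fcgr1 (-0.44), Fcgr2b (-0.42) and Tyrobp (-0.44) had negative means by the same measure, with P14 samples 4 and 5 low for all 3 genes and high for Fcer1g.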
